A study of Mus musculus with 9 samples.

Results

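The transcriptome of the normal mouse pancreas was described from 3 libraries of wild-type (WT) mice, which were littermates of mice with a knock-in at Snd1 or an S6k2 allele labelled RK. The WT mice carried neither allele and were 8 weeks old. Whole pancreas was snap-frozen and ground, so each library holds the RNA of every cell type of the organ and of any tissue dissected with it. The libraries are strand-specific, were made from polyA RNA and were read from both ends over 150 bp. The 3 WT libraries are 3 of the 9 in the study, and the other 6 were not used. Members were all genes with a nonzero count in WT 1, WT 2 or WT 3, which were 19086 of the 46078 genes in the table. The strain and sex of the mice are not given in the sources used here, and the labels do not pair or pool animals.

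The exocrine pancreas is built of acinar cells, which make digestive enzymes, mostly as inactive zymogens, store them in zymogen granules and release them into ducts that lead to the gut. The endocrine pancreas is the islets, small groups of cells that secrete insulin, glucagon and somatostatin into the blood. Acinar cells devote most of their messenger RNA to a small number of secreted enzymes, so a gene of another cell type is read against a background of enzyme transcripts. The acinar programme is held by the PTF1 complex, in which Ptf1a pairs with Rbpjl, together with Bhlha15, Nr5a2 and Gata4.

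The libraries held 14635278, 14500270 and 13461427 reads assigned to genes in WT 1, WT 2 and WT 3. Values are the authors' normalized counts, in which 1 read is worth 0.873, 0.901 and 0.983 units. A count of 0 allows up to 3 reads, which is 2.62, 2.70 and 2.95 normalized counts. A gene was detected in a library when it had at least 1 read, and 17115, 16817 and 16724 genes were detected, a mean of 16885 ± 204 (SD, n = 3). In all 3 libraries 14961 genes were detected. Where 3 values follow a gene or a gene list, they are those of WT 1, WT 2 and WT 3 in that order.

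Most reads came from very few genes. The leading gene held 11.4% of the reads, the leading 5 held 39.6%, the leading 10 held 58.8% and the leading 30 held 78.3% ± 0.541 (SD, n = 3). The first 8 genes reached 50% of the reads, 22 genes reached 75%, 998 reached 90% and 8132 reached 99%. Counting error is small at this depth: the widest 95% Wilson half-width among the 30 leading shares was 0.0172 percentage points, so the SDs between animals, not the reads, set the error of most of these shares. Intervals and the limits for a count of 0 cover counting error only.

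**Figure D1:**
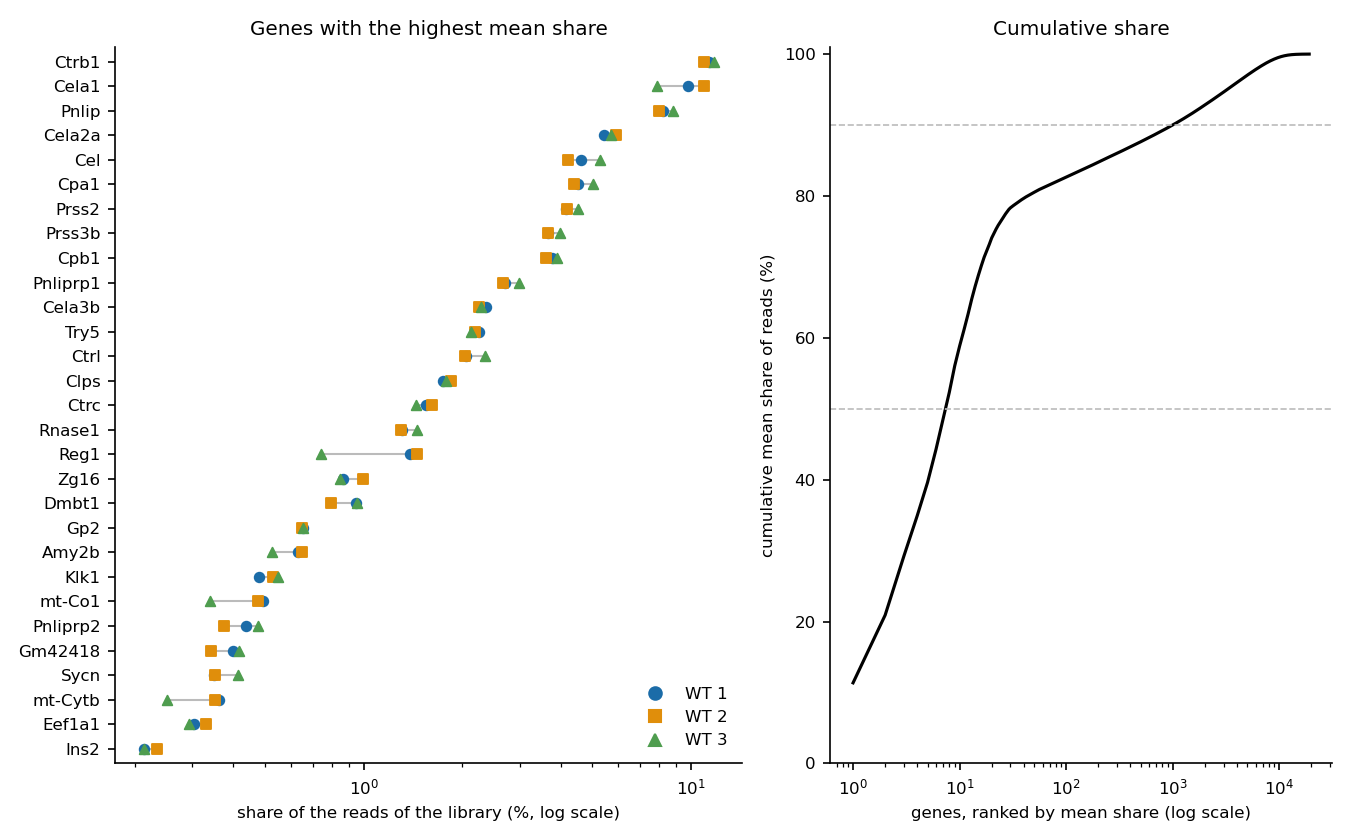
Left, the share of each library's reads (%, log axis) for the leading genes by mean share, with 1 symbol per WT library. Right, the cumulative mean share of reads (%) against the number of genes ranked by share (log axis), with dashed lines at 50% and 90%. The symbols of most genes overlap, Reg1 is lowest in WT 3 at 0.743%, and the curve bends at 30 genes and 78.3%.

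Proteases of the trypsin superfamily took the largest part. Ctrb1 (chymotrypsinogen B, chr8:111686519-111691010) had 11.3, 11.0 and 11.7% of the reads, a mean of 11.4% ± 0.376 (SD, n = 3), the highest share of any gene. Cela1, an elastase, had 9.82, 10.9 and 7.89%, and Cela2a, a second elastase, had 5.44, 5.92 and 5.70%. The Ctrb1 and Cela2a values of the libraries lie close together, whereas Cela1 was lowest in WT 3 and had the largest SD among the 10 leading genes, 1.53 percentage points. All 7 chymotrypsins and elastases together, which also include Cela3b, Ctrl, Ctrc and Cela3a, held 32.6% ± 1.17 of the reads (SD, n = 3). Ctrc, the chymotrypsin known for cleaving trypsinogen, overlaps Cela2a on chromosome 4 in the annotation (chr4:141814962-141846359 and chr4:141814962-141826160), so reads in their shared exons could have been counted for either. Cela3a is the minor member, with normalized counts of 326, 297 and 358.

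The trypsinogens, the zymogens of the protease that activates the others in the gut, held 10.4% ± 0.305 of the reads (SD, n = 3). Nearly all of this was in 3 genes: Prss2 with 4.14, 4.19 and 4.51%, Prss3b with 3.66, 3.67 and 3.99% and Try5 with 2.26, 2.19 and 2.13%. Prss2 is anionic trypsinogen, and the reference used for gene names holds Prss3b under its older name 2210010C04Rik. Among the carboxypeptidases, which remove the last amino acid of a peptide, Cpa1 had 4.52, 4.39 and 5.03% and Cpb1 had 3.76, 3.60 and 3.89% of the reads, both lowest in WT 2 and highest in WT 3. Trypsinogens and amylases are families of near-identical copies. Counts of single copies and family sums rest on the handling of reads shared between copies, which is not given in the sources used here.

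Lipases and their cofactors held 18.1% ± 1.16 of the reads (SD, n = 3). Pnlip, pancreatic triglyceride lipase, had 8.20, 7.98 and 8.81%. Cel, the bile salt-dependent lipase, had 4.61, 4.21 and 5.26%, and Clps, the colipase that anchors Pnlip to fat droplets, had 1.75, 1.85 and 1.79%. Pnlip and Cel were highest in WT 3, and Clps varied less than either, with a CV (SD over mean of the normalized counts) of 3.96%. The lipase-related gene Pnliprp1 had 2.78% ± 0.174 and Pnliprp2 had 0.429% ± 0.0498, and the phospholipase Pla2g1b had normalized counts of 13942, 14678 and 14642.

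Starch and nucleic acid digestion took a smaller share of the assigned reads. The amylases held 0.729% ± 0.0868 of the reads (SD, n = 3), most of it in Amy2b with 0.629, 0.648 and 0.527%. This sum also rests on the handling of reads shared between copies, so it may understate amylase RNA, which was not tested. The copy Amy2a4 had 0, 1 and 0 reads. The annotation used for coordinates classes Amy2b as an unprocessed pseudogene. Rnase1, the pancreatic ribonuclease, had 1.31, 1.30 and 1.46%, whereas the deoxyribonuclease Dnase1 had no read in any of the libraries. Across the 35 genes of the enzyme lists the share was 71.8, 72.2 and 73.7%, a mean of 72.5% ± 0.993 (SD, n = 3).

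Other secretory granule proteins held 3.59% ± 0.0574 of the reads (SD, n = 3). Zg16, a granule lectin, had 0.863, 0.997 and 0.846%, Dmbt1, a scavenger receptor glycoprotein, had 0.947, 0.797 and 0.958%, and Gp2, the main glycoprotein of the granule membrane, had 0.653, 0.650 and 0.652%. The 3 values of Gp2 had an SD of 0.00129 percentage points, against 0.0828 for Zg16 and 0.0897 for Dmbt1. The kallikrein Klk1 and syncollin (Sycn) also stood among the 30 leading genes, at 0.520% ± 0.0343 and 0.372% ± 0.0361. Spink1, the inhibitor that blocks trypsin inside the acinar cell, had normalized counts of 4198, 4354 and 4063. With the Reg family added, enzymes, granule proteins and Reg proteins, 50 genes in all, held 77.4% ± 0.630 of the reads (SD, n = 3).

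Of the 30 genes with the highest shares, 5 belong to no acinar list. These were the mitochondrial genes mt-Co1 (0.436% ± 0.0846) and mt-Cytb (0.321% ± 0.0611), the noncoding transcript Gm42418 (0.386% ± 0.0384), the elongation factor Eef1a1 (0.309% ± 0.0191) and Ins2 (0.220% ± 0.0121), an insulin gene. Ins2 ranked 30 by share and Ins1, the other insulin gene, ranked 38. Both mitochondrial genes were lowest in WT 3, at 0.339% for mt-Co1 and 0.251% for mt-Cytb.

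A share of reads favours long transcripts, so levels of different genes were compared only after division by the merged exon length of each gene. Per kilobase, Ctrb1 again ranked 1, followed by Prss2, Cela1, Pnlip, Cela2a, Clps, Cpa1 and Try5. Prss2, whose merged exons span 815 bp, moved up to rank 2 from rank 7 by share, and Clps, with 611 bp, moved up to rank 6 from rank 14. Dmbt1, with 7057 bp, moved down to rank 34 from rank 20. The place of Cela1 depends on the length used: its merged exons add up to 2306 bp but the median annotated transcript is 762 bp, which puts it at rank 2, and Prss2 at rank 5. After division by merged exon length the enzyme lists held 79.9% ± 1.66 (SD, n = 3).

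Chromosome 6 carried 18.2% of the reads, with the trypsinogens, Cpa1 and Reg1 on it, and 6 of the 30 leading genes. Chromosome 8 carried 14.5%, of which Ctrb1 alone made 11.4 percentage points, and chromosome 19, with Pnlip, Pnliprp1 and Pnliprp2, carried 12.4%. Chromosome 7 also held 6 of the 30 but carried 5.37% of the reads. Genes annotated as protein coding made 98.5% of the reads.

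The 250 bases before the RefSeq start (build GRCm38.p6) of the 4 genes with the highest shares are shown because these genes led the ranking by share and belong to the enzyme programme. PTF1 binds a bipartite site. Its E-box element was searched for with the letters CACCTG on either strand. Its other element, which is rich in pyrimidines and called the TC-box, was searched for with the letters TTTCCC on either strand. The sequence that positions the polymerase at many tissue-specific promoters, the TATA box, was searched for with the letters TATAAA on the strand of the gene. Matches are in capitals, and no matches overlap in these windows.
Ctrb1, chr8:111691011-111691260, minus strand: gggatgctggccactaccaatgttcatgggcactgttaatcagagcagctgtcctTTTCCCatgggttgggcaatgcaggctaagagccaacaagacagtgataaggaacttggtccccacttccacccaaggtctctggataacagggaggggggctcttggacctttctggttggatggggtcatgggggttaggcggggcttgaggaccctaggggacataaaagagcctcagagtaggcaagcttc
Cela1, chr15:100687921-100688170, minus strand: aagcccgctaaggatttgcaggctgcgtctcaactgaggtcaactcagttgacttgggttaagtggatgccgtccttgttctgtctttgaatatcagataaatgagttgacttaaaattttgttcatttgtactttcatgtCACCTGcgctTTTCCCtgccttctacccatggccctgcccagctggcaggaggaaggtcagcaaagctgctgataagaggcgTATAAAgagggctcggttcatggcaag
Pnlip, chr19:58670115-58670364, plus strand: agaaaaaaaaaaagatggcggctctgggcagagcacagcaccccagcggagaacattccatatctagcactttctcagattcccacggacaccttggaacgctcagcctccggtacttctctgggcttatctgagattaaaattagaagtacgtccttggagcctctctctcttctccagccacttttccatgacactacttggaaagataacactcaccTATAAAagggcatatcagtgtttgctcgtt
Cela2a, chr4:141826006-141826255, minus strand: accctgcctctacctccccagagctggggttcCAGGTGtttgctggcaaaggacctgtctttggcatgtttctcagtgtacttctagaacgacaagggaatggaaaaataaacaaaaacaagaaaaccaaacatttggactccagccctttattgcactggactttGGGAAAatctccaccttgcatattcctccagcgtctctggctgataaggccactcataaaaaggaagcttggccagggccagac

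Cela1 held the E-box 109 bases and the TC-box 99 bases before its start, with a TATA box at 27 bases. Cela2a held the letters of both elements in the reverse orientation, the E-box at 218 and the TC-box at 84 bases. Along the strand of the gene these 2 matches lie far apart with the E-box first, as in Cela1. Read in their own orientation, these 2 matches have the TC-box first, the opposite of Cela1. The search set no order or spacing, so they are not shown to form 1 bipartite site. Ctrb1 had a TC-box match at 195 bases, and Pnlip had a TATA box at 30 bases, with neither element of PTF1 in this window. The RefSeq start of Pnlip lies 17867 bp from the start of the GENCODE gene, and that of Cela2a lies 155 bp away, so the windows depend on the annotation.

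A RefSeq promoter was matched by symbol for 20 of the 30 nuclear genes with the highest shares. The E-box element was found in 10 of these (50%), against 17.1% of all 27025 promoters. The TC-box element was found in 8 (40%), against 21.9% of all promoters, and the TATA box in 6 (30%), against 8.12%. Letters of both PTF1 elements, in any order, orientation and spacing, stood in 4 (20%), against 3.63%. In the 6529 promoters of genes averaging 50 or more, the E-box was found in 15.2% and the TC-box in 23.0%. The TATA box was found in 3.81% of these 6529 and both PTF1 elements in 3.45%. Among the 75 promoters of the 100 leading genes the shares were 26.7% for the E-box, 30.7% for the TC-box, 13.3% for the TATA box and 9.33% for both elements. Such letters are a description of the windows, and whether PTF1 occupies them was not measured.

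Transcripts of the acinar regulators were present in all libraries at far fewer reads than those of the enzymes. All 16 listed regulators and acinar proteins were detected in all 3 libraries, and none of the 14 averaging 50 or more normalized counts differed 2-fold between libraries. Over all 8297 genes with such a mean the share was 2.74%, so a count of 0 in a list of this length is near the background, here and for the other short lists below, and is not particular to the list. Ptf1a had normalized counts of 318, 280.1 and 349, Rbpjl had 833, 815 and 686, and Bhlha15 (Mist1), which shapes the secretory apparatus, had 2577, 2409 and 3046. For 10 of the 14 the lowest value was in WT 2, against 36.8% of the 8297 genes. Cckar, the cholecystokinin receptor that triggers enzyme release, had 4648, 4151 and 5097.

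The endoplasmic reticulum genes fitted to a secretory cell were also abundant. Hspa5 (BiP), the main chaperone of the endoplasmic reticulum, had normalized counts of 6204, 6121 and 7061, and Xbp1, the transcription factor that expands this compartment, had 3417, 3225 and 3240.5. None of the 20 genes of that list differed 2-fold, and 14 were highest in WT 3, against 38.9% of the 8297 genes. Of the genes under ATF4, the factor of the amino acid and stress response, Nupr1 had 9196, 9638 and 9641 and Asns, asparagine synthetase, had 2557, 2739 and 2513. Ddit3, which marks severe stress, had 86.4, 69.4 and 45.2.

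The genes altered in the mutant mice of the study were both expressed in WT pancreas. Snd1, a gene for a protein that recognizes methylated arginine through its Tudor domain, had normalized counts of 1906, 1893 and 2180.3 and ranked 208 by share. Rps6kb2, the S6K2 kinase of the mTOR pathway, had 55.0, 65.8 and 53.1, and its paralogue Rps6kb1 had 503, 429.7 and 427. Divided by merged exon length, which is 5167 bp for Rps6kb2 and 8658 bp for Rps6kb1, Rps6kb1 remained the higher of the paralogues.

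Markers of the other pancreatic cells were present in all 3 libraries. In bulk tissue, fewer cells of a type and less RNA per cell cannot be told apart, and the sums of different lists say nothing about the numbers of cells. All 15 ductal markers were detected in every library. Muc1, a mucin of the duct surface, had normalized counts of 975, 968 and 957, Krt19, the keratin used to mark ducts, had 208, 222 and 216, and Sox9, the duct transcription factor, had 130.00, 104 and 134. Cftr, the chloride channel of the duct, had only 12.2, 9.91 and 5.90. None of the 11 ductal markers averaging at least 50 differed 2-fold between libraries, and the summed list was 2943, 2819 and 2728.

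The islet hormones held 0.384% ± 0.0303 of the reads (SD, n = 3). Ins2 had normalized counts of 27316, 30612 and 28206, Ins1 had 14562, 16823 and 14371 and Gcg, which encodes glucagon, had 2529, 3945 and 3001. All 5 hormone genes averaging 50 or more were highest in WT 2, against 33.7% of the 8297 genes. Iapp, secreted with insulin, had 2221, 2688 and 2084, Sst, somatostatin, had 399.6, 574 and 520.2 and Ppy, pancreatic polypeptide, had 32.3, 31.5 and 23.6. Ghrl, the hormone of epsilon cells, had no read. None of the 5 hormone genes averaging 50 or more differed 2-fold.

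None of the 9 beta cell genes outside the hormones averaging at least 50 differed 2-fold. Slc2a2, the glucose transporter of beta cells, had 186, 213 and 238, Pdx1, a regulator of the insulin gene, had 60.2, 46.8 and 76.7, and Mafa had 24.4, 19.8 and 18.7. The summed beta cell markers were 5258, 5281 and 5951, and most of that sum was Ero1b, with 4151, 3945 and 4704, an oxidase of the endoplasmic reticulum. Of the pan-endocrine genes, Chga (chromogranin A) had 1271, 1357 and 1505 and none of the 7 averaging at least 50 differed 2-fold.

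Blood vessels and connective tissue were represented by complete marker lists. All 14 endothelial markers were detected in every library, among them Pecam1 with 704, 682 and 884, Plvap, of fenestrated capillaries, with 807, 619 and 789 and Kdr, a VEGF receptor, with 305, 255 and 383. Of these 14, Cldn5, a claudin of endothelial junctions, differed 2-fold, with 40.1, 49.5 and 137 and the highest value in WT 3. All 12 fibroblast and stellate cell markers were detected, with Col3a1 at 2693, 1549 and 2756 and Dcn, decorin, at 2153, 1665 and 1853. None of the 12 differed 2-fold, and 9 were lowest in WT 2. Of all 8297 genes averaging 50 or more, 2.74% differed 2-fold and 36.8% were lowest in WT 2. Smooth muscle and pericyte markers included Rgs5 with 702, 586 and 584 and Myh11, smooth muscle myosin, with 496, 319.8 and 349.

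Macrophage markers were led by Lyz2, lysozyme, with 1703, 1671 and 1758, Csf1r, the CSF1 receptor, with 271, 264 and 454 and the complement gene C1qa with 289, 258 and 388. All 9 averaging at least 50 were lowest in WT 2 and highest in WT 3. Only 1 of these, Adgre1 (F4/80), differed 2-fold, with 49.7, 36.9 and 90.5. Over all 8297 genes with such a mean, 36.8% were lowest in WT 2, 38.9% highest in WT 3 and 2.74% differed 2-fold. Few reads came from other myeloid cells. The neutrophil genes S100a8 and S100a9 had 3.49, 1.80 and 1.97 and 5.24, 2.70 and 12.8, Ly6g and Mmp8 had no read, and the mast cell list summed to 35.8, 18.9 and 40.3. The natural killer list summed to 14.0, 18.9 and 25.6.

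Nerve and surface cells gave small signals. Mbp, of myelin, had 286, 325 and 364. Neuron genes summed to 53.2, 75.7 and 86.5, with Chat at 0. Mesothelial markers, from the sheet that covers the organ, included Upk3b with 352, 216 and 335 and Msln, mesothelin, with 166, 113 and 102, both lower in WT 2 than in WT 1. Lrrn4, the third of that list averaging at least 50, differed 2-fold with 105, 54.9 and 115, lowest in WT 2.

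Genes of neighbouring gut, of muscle and of kidney gave few reads. Of 10 enterocyte genes, 7 had no read in any library, including Fabp2, Sis and the transcription factors Cdx1 and Cdx2. Of 7 gastric genes, 4 had no read, and Muc5ac was among them. The skeletal muscle list summed to 5.24, 5.40 and 16.7 and the kidney and adrenal list to 35.8, 36.0 and 33.4. The spleen red pulp list of 4 genes summed to 118, 129 and 165, led by the iron exporter Slc40a1 with 68.1, 72.1 and 97.4 and the haem oxygenase Hmox1 with 47.1, 54.0 and 60.0, while Tlx1, a spleen regulator, had no read. The genes of the Y chromosome were expressed in all libraries, with Ddx3y at 250.4, 261 and 206, and Xist, transcribed from the inactive X chromosome, had at most 1 read.

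**Figure D2:**
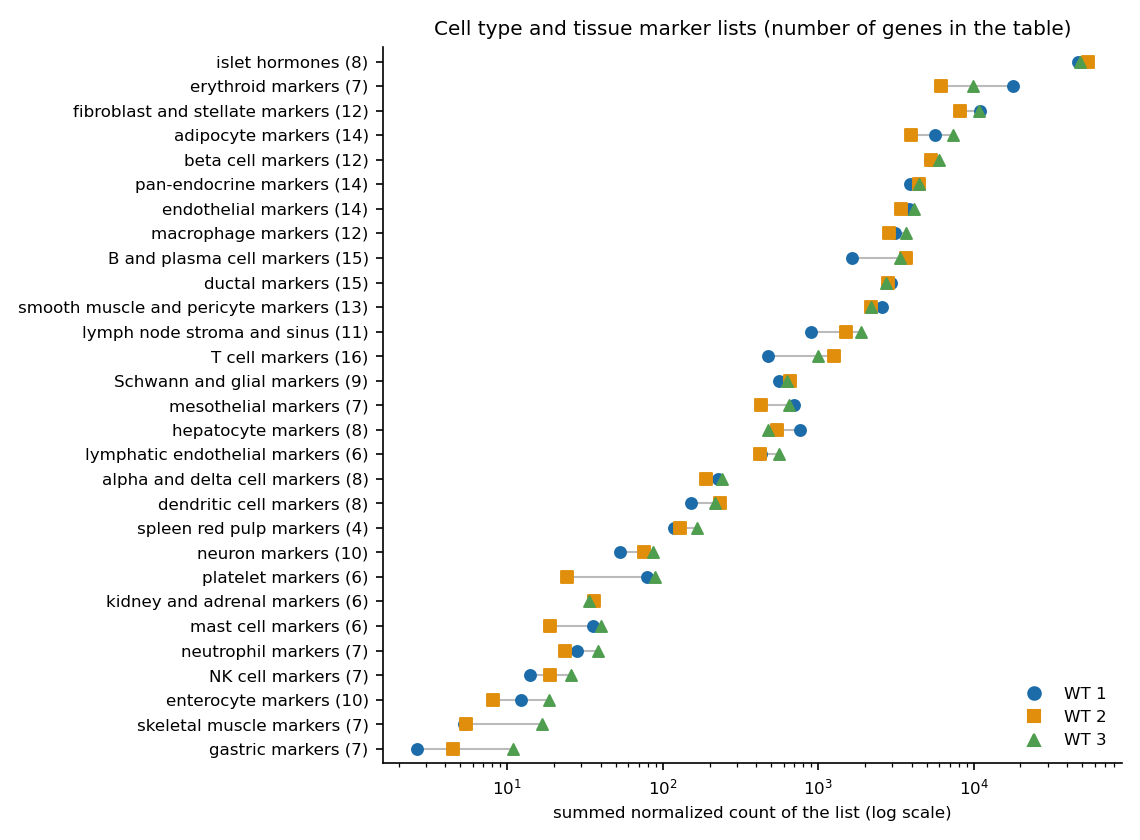
Summed normalized counts (log axis) of each marker list of non-acinar cells and other tissues, with 1 symbol per WT library and the number of listed genes in the table in brackets. Islet hormones lead at 47087 to 54711, gastric markers are last at 2.62 to 10.8, and the widest gaps between libraries among the upper lists are those of erythroid, T cell and B and plasma cell markers.

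The spread between the 3 animals was described over genes averaging 50 or more normalized counts, 8297 in all. With 3 libraries of 1 group there is no contrast to test, so the ratio of the highest to the lowest library is a description. The median CV was 12.2%, against 7.92% from counting error alone, and the median ratio was 1.26. The ratio was at least 2 for 227 genes, which is 2.74% of the 8297. Among the 413 that averaged 1000 or more it was at least 2 for 9 genes, or 2.18%, with a median ratio of 1.20. The observed variance, which includes counting, was 1.96 times the counting variance in the median gene with a mean of 50 to 100, and 662 times in the median gene of 10000 or more. With 3 libraries, counting alone gives a median of 0.693 for this ratio.

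**Figure D3:**
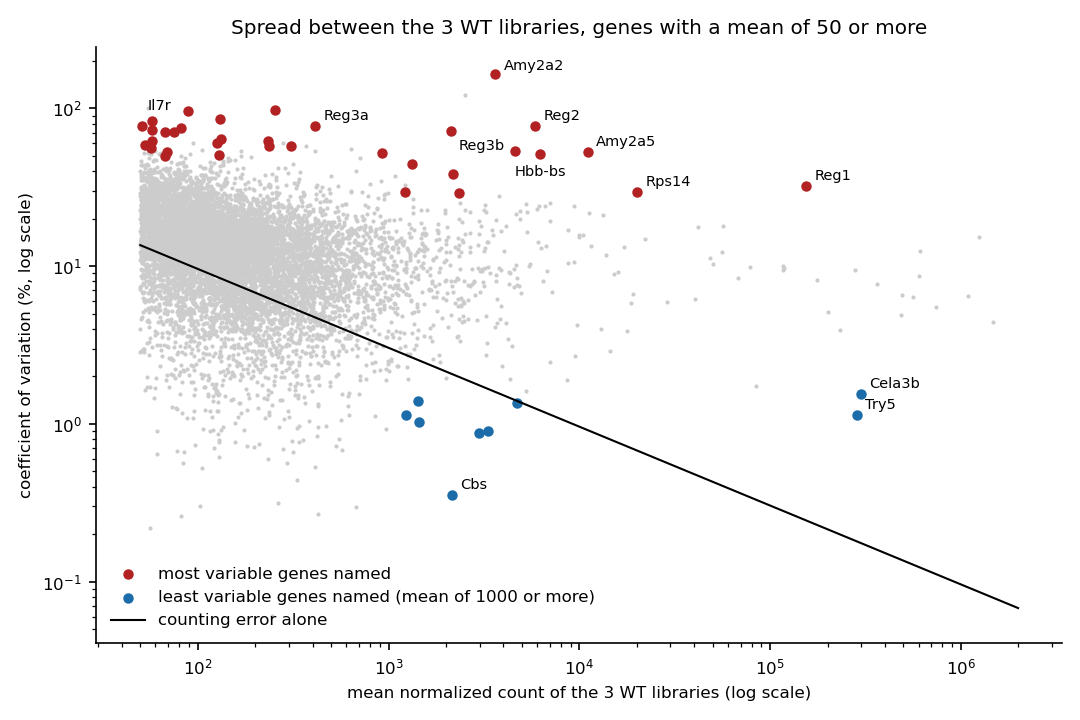
Coefficient of variation (%, log axis) against the mean normalized count of the 3 WT libraries (log axis) for the 8297 genes averaging 50 or more, grey. Red points are the most variable genes named, blue points the least variable averaging at least 1000, and the line is counting error alone. Amy2a2 is highest at 165%, Reg2 stands at 77.3%, and Cbs is among the lowest at 0.355%.

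Each pair of libraries differed in a similar number of genes. WT 1 and WT 2 differed 2-fold in 99 genes (1.19% of 8297), WT 1 and WT 3 in 99 (1.19%), and WT 2 and WT 3 in 117 (1.41%). Across genes, which are not independent replicates, Pearson's r of log2 values was 0.971, 0.971 and 0.961 for these pairs. Of the 227 genes, the library farthest from the middle one was WT 1 on the low side in 70 (30.8%), WT 2 on the low side in 54 (23.8%) and WT 3 on the low side in 50 (22.03%). On the high side WT 1 stood apart in 8 (3.52%), WT 2 in 22 (9.69%) and WT 3 in 23 (10.1%). Over all 8297 genes the low side shares were 15.4% for WT 1, 20.2% for WT 2 and 18.1% for WT 3, and the high side shares were 11.6%, 15.4% and 19.3%. The lowest library was WT 1 for 31.1% of the 8297 genes, WT 2 for 36.8% and WT 3 for 32.1%, and the highest was WT 1 for 27.4%, WT 2 for 33.7% and WT 3 for 38.9%.

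The genes low in WT 3 included most of the Reg family, secreted lectins of acinar cells known for rising in pancreatic injury. Reg1 had normalized counts of 176854, 190187 and 98359, Reg2 had 8168, 8827 and 646 and Reg3b had 2838, 3139 and 379.6. Reg3a had 536, 646 and 51.1, Reg3d had 2507, 2805 and 1224 and Reg3g had 87.3, 87.4 and 28.5, while Reg4 had no read. All 6 expressed members were lowest in WT 3 and highest in WT 2, and WT 1 and WT 2 lay close together for each. The ratio of highest to lowest was at least 2 for all of the 6 but Reg1, with a median of 5.67, against 2.74% of all genes and a median of 1.26. The 6 genes lie side by side on chromosome 6 (GRCm38), from Reg3b at chr6:78370657-78373466 to Reg3g at chr6:78466269-78468872.

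The 250 bases before the RefSeq starts of Reg2 and Reg3b (build GRCm38.p6) are shown as the most abundant pair of Reg genes that differed over 8-fold between libraries, with the same letters in capitals.
Reg2, chr6:78404905-78405154, plus strand: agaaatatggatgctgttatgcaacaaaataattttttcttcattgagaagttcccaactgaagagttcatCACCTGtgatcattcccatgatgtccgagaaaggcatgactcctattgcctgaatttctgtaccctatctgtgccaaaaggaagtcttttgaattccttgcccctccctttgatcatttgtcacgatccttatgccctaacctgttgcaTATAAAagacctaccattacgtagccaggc
Reg3b, chr6:78370635-78370884, plus strand: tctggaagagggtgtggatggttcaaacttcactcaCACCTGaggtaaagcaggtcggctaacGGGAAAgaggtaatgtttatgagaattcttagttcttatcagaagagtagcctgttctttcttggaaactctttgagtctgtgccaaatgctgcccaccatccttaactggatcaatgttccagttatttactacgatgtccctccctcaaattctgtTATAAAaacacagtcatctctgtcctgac

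Reg2 held the E-box 179 bases before its start and a TATA box at 30 bases, with no TC-box match in this window. Reg3b held the E-box at 214 bases, the TC-box in the reverse orientation at 187 bases and a TATA box at 29 bases. The RefSeq start of Reg2 lies 9532 bp from the start of the GENCODE gene, and that of Reg3b lies 228 bp away.

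Some copies of the amylase and trypsinogen families varied more than the summed families, and others did not. Amy2a2 had the largest SD of log2 values among the genes averaging 50 or more, with normalized counts of 357, 10545 and 1.97, and Amy2a3 had 270.5, 0 and 493. Amy2a5 had 5192, 11138 and 16816, so the lowest value was in WT 3 for Amy2a2, in WT 2 for Amy2a3 and in WT 1 for Amy2a5. Amy1, the salivary and liver amylase gene, had 1514, 1629.5 and 1456, a ratio of 1.12, and the summed amylases were 87901, 108234 and 88689. Of the 7 trypsinogens averaging 50 or more, 2 differed 2-fold, against 2.74% of all genes. Prss1 had 11.3, 126 and 109, lowest in WT 1, and 1810009J06Rik had 107, 98.2 and 39.3, lowest in WT 3. The trypsinogen sum differed 1.09-fold.

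**Figure D4:**
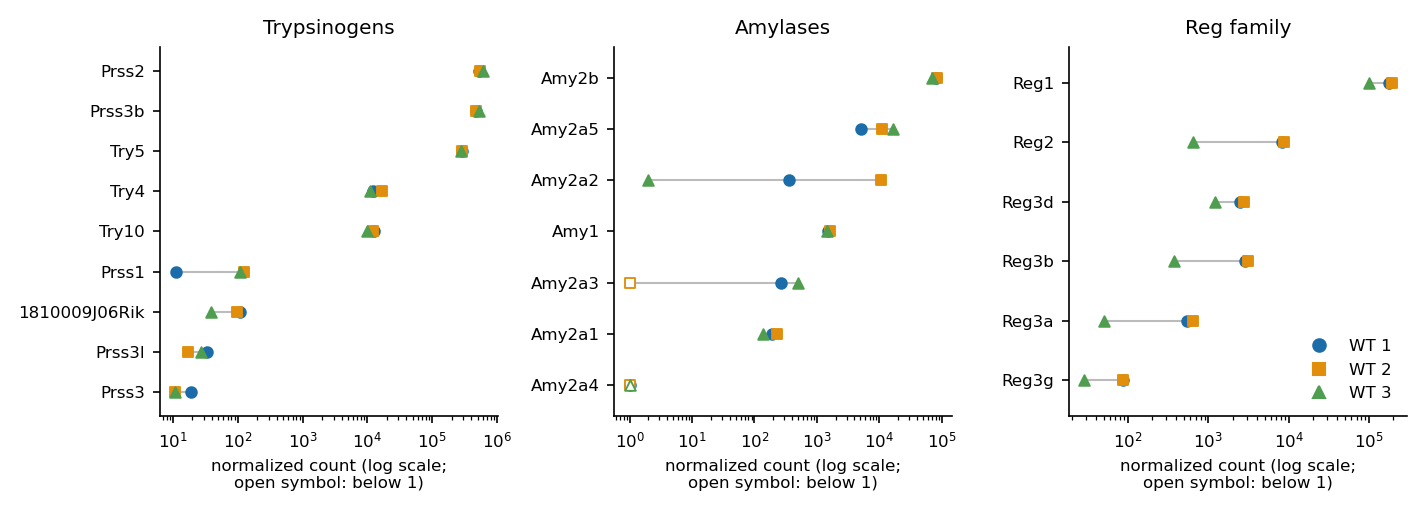
Normalized counts (log axis) of each trypsinogen, amylase and Reg gene with at least 1 read, with 1 symbol per WT library and open symbols for values below 1, drawn at 1. The leading trypsinogens overlap, Amy2a2 spans 1.97 to 10545, and each Reg gene is lowest in WT 3.

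The genes low in WT 1 included many of lymphocytes. The 31 T cell, B cell and plasma cell markers summed to 2118 normalized counts in WT 1, 4945 in WT 2 and 4372 in WT 3, a ratio of 2.33. Without WT 1 the ratio was 1.13. All 5 T cell markers averaging at least 50, which were Tcf7, Cd4, Lck, Trbc2 and Cd3g, differed at least 2-fold and were lowest in WT 1 and highest in WT 2. Tcf7, a T cell transcription factor, had 78.5, 226 and 168, and Cd4, the helper T cell coreceptor, had 54.1, 171 and 163. Of 13 B and plasma cell markers 7 differed 2-fold, and all 13 were lowest in WT 1. Of all genes, 2.74% differed 2-fold and 31.1% were lowest in WT 1.

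Immunoglobulin transcripts made up most of that list. Igkc, the kappa constant region, had 337, 1014 and 772, Ighm had 438, 613 and 674 and Jchain, which joins secreted IgA and IgM, had 79.4, 331 and 299.95. Ighg1 had 120.4, 475 and 327 and Ighg2b had 48.0, 258 and 85.6, both highest in WT 2, whereas Igha, the IgA heavy chain, was highest in WT 3 with 151, 215 and 470.1. Il7r and Il2rb, cytokine receptors of lymphocytes, had 13.1, 109 and 51.1 and 17.5, 75.7 and 64.9, and the T cell chemokine Ccl5 had 28.8, 99.1 and 78.7.

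Transcripts of lymph node stroma and sinus were also lowest in WT 1 for most of their list. Glycam1, a ligand for lymphocyte homing made by high endothelial venules, had 76.8, 258 and 172, and Ccl21a, a chemokine of lymphoid stroma, had 143, 360.3 and 286. Marco, a receptor of sinus macrophages, had 269, 298 and 666, and Cd209b had 150.1, 249 and 337. Of the 6 list members averaging at least 50, 4 differed 2-fold and 5 were lowest in WT 1. Of all 8297 genes with such a mean, 2.74% differed 2-fold and 31.1% were lowest in WT 1. The sixth member, Cxcl13, a B cell chemokine, was lowest in WT 2 with 123, 114 and 156. Marco and Cd209b were highest in WT 3, as were Stab2, a scavenger receptor of sinusoidal endothelium, with 34.0, 45.9 and 122, and Cldn5. Whether pieces of lymph node were dissected with the organ was not tested.

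Blood and fat transcripts divided the libraries in other ways. The haemoglobin genes Hbb-bs and Hba-a1 had 9767, 3540.1 and 5319.5 and 7201, 2324 and 4203, and Alas2, the haem synthesis enzyme of red cells, had 609.9, 199.98 and 302. With Hba-a2 these were all 4 erythroid genes averaging 50 or more, and all 4 differed 2-fold and were highest in WT 1 and lowest in WT 2. Of all 8297 genes with such a mean, 2.74% differed 2-fold, 27.4% were highest in WT 1 and 36.8% lowest in WT 2. The summed erythroid list was 17825, 6146 and 9937. Adipocyte markers were lowest in WT 2 in 10 of 10 genes, and 5 of the 10 differed 2-fold (Car3, Cfd, Plin4, Cidec and Plin1), against 36.8% of all genes lowest in WT 2 and 2.74% differing 2-fold. Car3, a carbonic anhydrase abundant in fat, had 1360.2, 729 and 1915, Cfd (adipsin) had 547, 343 and 1028, and Adipoq, adiponectin, had 232, 166 and 318, a ratio of 1.92.

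Of the 25 most variable genes, Il7r, Il2rb, Ccl5, Ighg2b and Stab2, described above, belong to no list. A further 8 of the 25 belong to no list either. Itih4, a serum inhibitor subunit, had 1181, 1237 and 371, low in WT 3 as the Reg genes were. Hp, haptoglobin, had 209, 104 and 390.4, and Prg4, lubricin, had 70.7, 20.7 and 79.7, both lowest in WT 2. Col6a5, a collagen VI chain, had 198, 47.7 and 131, Scand1 had 217, 49.5 and 129 and Npr3, a natriuretic peptide receptor, had 50.6, 26.1 and 96.4, also lowest in WT 2. Ltbp2, a matrix protein that resembles latent TGF-beta binding proteins, had 26.2, 30.6 and 96.4 and Gbp2b, an interferon-inducible GTPase, had 34.0, 32.4 and 106, both highest in WT 3.

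Among abundant genes outside these groups the spread was smaller. Rps14, a ribosomal protein, had 23142, 23707 and 13199. Igfbp5 had 1448, 813 and 1419, lowest in WT 2 as was Col3a1. Of these, none reached a ratio of 2.

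**Figure D5:**
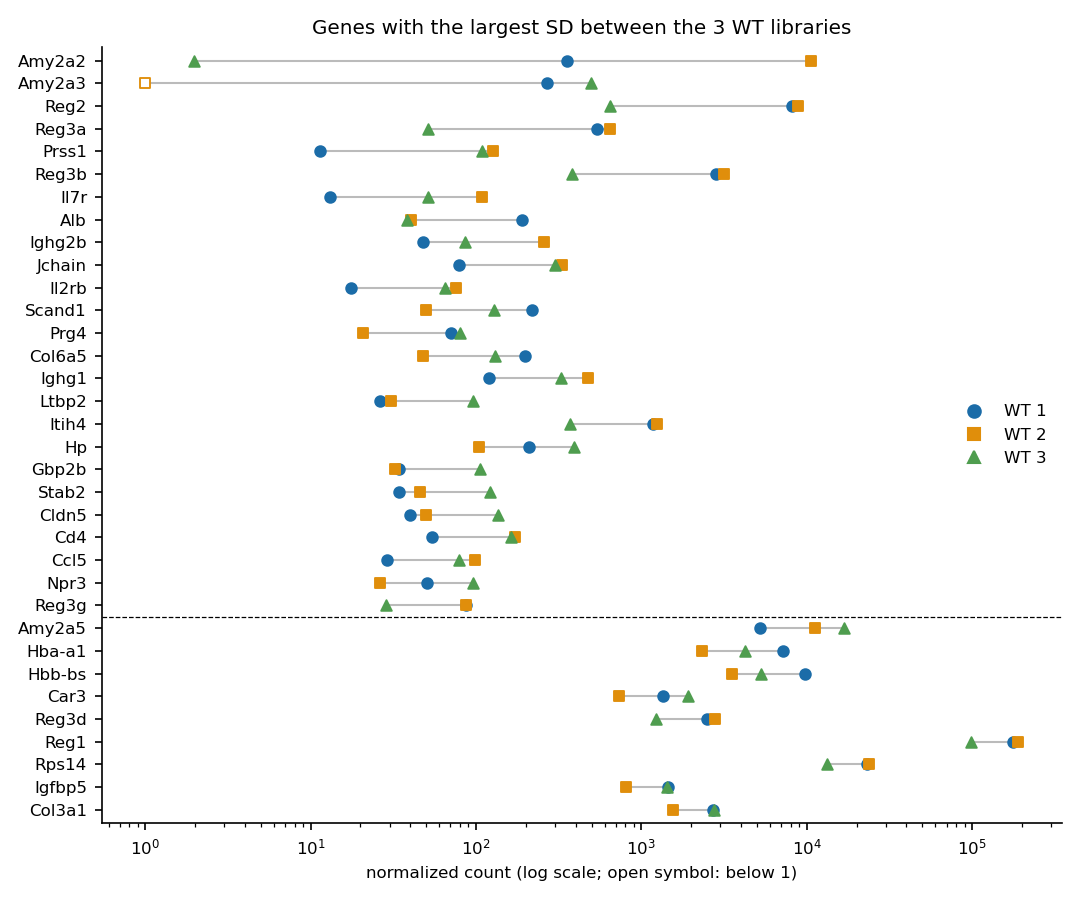
Normalized counts (log axis) in WT 1, WT 2 and WT 3 of the 25 genes with the largest SD of log2 values among genes averaging 50 or more, above the dashed line, and further genes averaging at least 1000 below it. Values below 1 are open symbols drawn at 1. WT 3 is the low symbol for the Reg genes, WT 1 for the lymphocyte genes, and WT 2 for the haemoglobin genes.

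At the other end, Cbs, cystathionine beta-synthase, had 2136, 2149 and 2149, the smallest SD among genes averaging 1000 or more, with a CV of 0.355%. Odc1, ornithine decarboxylase, had 1454, 1426 and 1449, and Krt18, a keratin of acinar and duct cells, had 1234, 1258 and 1234. The ribosomal genes Rpl28 and Rpl6 were in the same set with 2941, 2965 and 2993 and 3309, 3342 and 3368. Serinc3 and Slc25a5, a mitochondrial ADP/ATP carrier, belonged to it, as did the enzymes Try5 and Cela3b. Apart from Try5 and Cela3b, each of these genes had a CV below its counting error, so their order among themselves is not resolved at this depth.

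Genes that follow hormones, meals and the hour of the day differed in a few members. Per1, a clock gene induced by glucocorticoids, had 539, 522 and 283, and Fkbp5, a glucocorticoid target, had 411, 404 and 199.6, both lowest in WT 3. The clock repressor Nr1d1 was highest in WT 3 with 299, 239 and 498, and Ciart was lowest there with 116, 94.6 and 41.3. Of 12 clock genes 2 differed 2-fold, and of 9 glucocorticoid and fasting genes 1 did, against 2.74% of all genes, and nothing is read from counts this small. The metallothioneins Mt1 and Mt2 had 5105, 5375 and 3533 and 3568, 3733 and 2314, lowest in WT 3 at ratios of 1.52 and 1.61. The hours of collection are not given in the sources used here.

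Ribosomal and mitochondrial transcripts lay mostly less than 2-fold apart between libraries. Of 79 ribosomal protein genes 72 were highest in WT 2 and 63 lowest in WT 3, none differed 2-fold, and the list held 2.19% ± 0.297 of the reads (SD, n = 3). Of 13 mitochondrial genes averaging 50 or more 12 were lowest in WT 3 and 1 differed 2-fold, mt-Atp8 with 48.9, 72.1 and 34.4. Over all 8297 genes with such a mean, 33.7% were highest in WT 2, 32.1% lowest in WT 3 and 2.74% differed 2-fold. The sums over all 37 genes of the mitochondrial list were 200899, 196726 and 146801. Of 9 immediate-early genes averaging 50 or more none differed 2-fold, and Fos, the gene first induced when tissue is disturbed, had 5.24, 0.901 and 9.83. Proliferation genes were low, with Mki67 at 37.5, 64.9 and 47.2 and Top2a at 30.5, 27.9 and 41.3. The interferon-stimulated list summed to 519, 613 and 690.4, with Psmb8, a subunit of the immunoproteasome, at 91.6, 189 and 189.8, lowest in WT 1 as the lymphocyte genes were.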

How the data were processed

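The values deposited by the authors are normalized counts, a signal in which the read counts of a library are all scaled by the same size factor. DESeq2 and the builds GRCm38 and mm10 are named in the submitters' processing notes. The aligner, counter and annotation release are not given in the sources used here. Dividing a library's values by its smallest one returned whole reads for 100% of values (tolerance 1e-06), and shares are percentages of those reads. The labels state about 40 M read pairs per library. Shares refer only to the 13461427 to 14635278 reads assigned to genes in a library, so they do not cover all stated pairs. The columns of the other 6 libraries were not used.

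Of 4669 identifiers that lack a symbol in the table, 3737 were matched to one in a reference. Coordinates and merged exon lengths come from release 21 of GENCODE for mouse (GRCm38), and 99.5% of members had a length. Promoters are RefSeq (GRCm38.p6). Spread was described for genes averaging 50 or more normalized counts, with SDs of log2(normalized count + 1), and no test was made because 1 group has no contrast. The procedures were tested on simulated data, with Python 3.11.15, numpy 2.4.6 and pandas 2.3.3.

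Named genes were the 30 highest by share, the 15 highest per kilobase, the 25 with the largest SD and 10 more with a mean of at least 1000, the 10 with the smallest SD above that mean, and up to 5 highest and 3 lowest members of 51 gene lists. Predicted genes (Gm and a number), Rik clones and -ps pseudogenes were left out of the SD ranks. Snd1, Rps6kb1, Rps6kb2, Ptf1a, Rbpjl, Pdx1, Adipoq, Adgre1, Ciart, Fos, Top2a and list members named as 2-fold different were added to these after their values were seen. A few genes are not reported here. Members and lists were chosen with earlier results of these data known. Alternatives were other minimum means, pseudocounts, scalings and lengths, and leaving out each library.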

Additional observations from a re-analysis of the deposited data

How the results depend on the processing

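The share of the 30 leading genes was 78.3%, and became 87.1% when counts were divided by merged exon length and 84.6% with the median length of annotated transcripts, a choice made after the data were seen. The enzyme share of 72.5% became 79.9% and 77.9% under these lengths, 73.6% without mitochondrial genes in the total and 61.4% without the trypsinogen and amylase copies. Leaving out each library gave 78.0 to 78.5% for the 30 leading genes, 72.0 to 72.9% for the enzymes, and 16771 to 16966 detected genes. The number of genes that reached 50% of the reads was 8 in each case, and 6 under both lengths. Counting genes with at least 10 normalized counts gave 12111, and thinning to the shallowest library gave 16823.

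The 227 genes that differed 2-fold became 1295 with a minimum mean of 10, 36 with a minimum of 200, and 136 when 10 was added to each value. Leaving out a library gave 99 to 117. Equal totals gave 222 and size factors from the WT libraries alone gave 224. The lymphocyte ratio of 2.33 (2.23 to 2.45, counting error only) was 2.28 with equal totals and 2.28 from mean log2 values, and 1.13 to 2.33 when each library was left out, the lowest without WT 1. Of the 25 most variable genes, 25 remained with equal totals, 22 with a pseudocount of 10, 21 by CV less counting error, and 16, 18 and 14 without WT 1, WT 2 and WT 3.

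No paired analysis was possible because 1 group was described and no result comes from a test. With 3 animals, genes with a mean below 50 normalized counts were not ranked by spread, since counting error makes up more of theirs at this depth.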

Other observations

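Some transcripts of liver had more reads in WT 1 than in the other libraries. The whole hepatocyte list summed to 760, 545 and 476 normalized counts in WT 1, WT 2 and WT 3. In a search made after the data were seen, genes averaging 3 or more normalized counts that were at least 8 times as high in 1 library as in each of the others were counted, and there were 22 for WT 1, 9 for WT 2 and 6 for WT 3. Of the 22, Apoa1, an apolipoprotein, had 37, 0 and 0 reads in WT 1, WT 2 and WT 3. The fibrinogen chain Fgb had 21, 0 and 0 reads and the drug-metabolizing enzyme Cyp3a11 had 31, 0 and 0 reads. The 22 also held Fga, Fgg, Ahsg, Serpina1a and Serpina3k, all genes of hepatocytes, and 5 major urinary protein genes (Mup3, Mup7, Mup9, Mup10 and Mup17), whose copies are near-identical. Alb, albumin, had normalized counts of 188, 40.5 and 38.4, whereas Ttr, which islets also express, had 459, 504 and 435. The source of these transcripts was not tested.

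Some unnamed loci also varied. Gm23935, a 57 bp gene annotated as a miRNA, had normalized counts of 6019, 349 and 1203 and a ratio of highest to lowest of 17.3. It was picked out after its values were seen, and polyA libraries are not made to measure RNAs of this size.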
